A study of Homo sapiens with 4 samples.

Results

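The 10 genes described here are DUSP4, DUSP5, DUSP6, SPRY2, SPRY4, SPRED2, FOSL1, EGR1, MYC and PHLDA1, a list of transcriptional outputs and feedback inhibitors of the mitogen-activated protein kinase (MAPK) cascade. They were listed by name, with earlier results of these data known, and are 10 of the 20914 genes with a probe set annotated to exactly 1 symbol, and each has 1 such probe set. Expression was measured in MCF10A, a non-tumorigenic human breast epithelial line, in 4 stable transfectants: LacZ (a bacterial enzyme gene that serves as the control), Her2 (the receptor tyrosine kinase ERBB2), PIK3CA-H1047R (an activating variant of the catalytic subunit of PI3-kinase), and Her2 and PIK3CA-H1047R together. All cells were grown untreated in SFIHE medium, and the labels state neither the medium's components nor the vector, its promoter or whether a line is a clone or a pool. Each group is 1 array, so no value has a replicate error, no test of a difference between arrays was made, and every value below describes 4 arrays rather than 4 conditions.

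In the MAPK cascade, receptors activate RAS, RAS activates RAF kinases, RAF activates MEK, and MEK activates the kinase ERK. ERK raises transcription of immediate early genes and of its own inhibitors, among them dual-specificity phosphatases that dephosphorylate MAP kinases and Sprouty and Spred proteins that act between receptors and RAF. Because these inhibitors are transcribed in response to the cascade, their RNAs are widely used as readouts of its output in epithelial cells. ERBB2 signals to both the MAPK and the PI3-kinase pathways, and PIK3CA belongs to the latter.

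Values are log2 expression values, so a difference of 1 between arrays is 2-fold. The median over all 53617 probe sets lay between 1.13 and 1.17 on the 4 arrays. ERBB2, whose probe set MIR4728 shares, went against the labels: its value was 5.96 for LacZ, 4.29 under the Her2 label, 8.48 under the PIK3CA-H1047R label and 7.39 where both are named. The direction of every difference on the arrays labelled with a single gene therefore rests on labels that ERBB2 does not bear out, and Her2, PIK3CA-H1047R and both name labels in every comparison below. Epithelial identity was read from 4 of 7 markers with a probe set of their own. KRT5 was between 7.08 and 7.52 on all arrays. KRT14 was highest on the array labelled with both, at 3.43 against 1.47 to 2.24 elsewhere. CDH1 and EPCAM went the other way: CDH1 was 5.07 on that array against at least 8.94 elsewhere, and EPCAM 5.71 against at least 7.01. On the array labelled with both, the fibroblast markers LUM (6.26) and DCN (5.06) were also high, against at most 0.78 and 1.15 on the other arrays, while COL1A1, COL1A2 and PDGFRB stayed at or below 2.24 on every array. FAP was highest on the array labelled Her2 (5.92). The 6 fibroblast markers averaged 1.64, 1.81, 1.72 and 3.27 on the LacZ, Her2, PIK3CA-H1047R and both arrays. The 5 proliferation markers (MKI67, TOP2A, BUB1, CCNB1, CDK1) averaged 3.03, 2.51, 5.03 and 7.26 in the same order. Of the leukocyte markers, PTPRC and CD3E were at most 1.15 everywhere and CD68 ran from 4.68 on the LacZ array to 6.78 on the array labelled with both, and the endothelial VWF and CDH5 were at most 1.10. The part of these shifts in the MAPK values was not tested, and in bulk RNA fewer cells of a type and less RNA per cell cannot be told apart.

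The DNA just upstream of 3 of the genes is shown because these carry the patterns described below: DUSP6, lower on both arrays with the PIK3CA-H1047R label, PHLDA1, highest with that label alone, and EGR1, the classical immediate early gene. The windows are the 250 bases before the annotated start in RefSeq (GRCh38.p14), at chr12:89352502-89352751 on the minus strand for DUSP6, chr12:76031777-76032026 on the minus strand for PHLDA1 and chr5:138465229-138465478 on the plus strand for EGR1. Capitals mark matches, on either strand, to a CArG box (the core that serum response factor binds), to CCGGAA (part of many ETS factor sites), to TGANTCA (AP-1) or to TGACGTCA (a cyclic AMP response element). The last pair of motifs had no match in these 3 windows.
DUSP6: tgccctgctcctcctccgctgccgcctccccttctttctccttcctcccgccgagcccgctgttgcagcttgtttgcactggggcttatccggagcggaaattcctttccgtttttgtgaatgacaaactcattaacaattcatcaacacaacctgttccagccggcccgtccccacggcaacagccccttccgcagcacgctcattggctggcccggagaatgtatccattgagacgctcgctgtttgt
PHLDA1: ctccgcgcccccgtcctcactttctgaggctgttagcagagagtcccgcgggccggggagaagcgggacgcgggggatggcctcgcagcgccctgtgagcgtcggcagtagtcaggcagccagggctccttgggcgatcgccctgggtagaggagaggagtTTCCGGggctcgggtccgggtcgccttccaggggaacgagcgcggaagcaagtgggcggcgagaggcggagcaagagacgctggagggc
EGR1: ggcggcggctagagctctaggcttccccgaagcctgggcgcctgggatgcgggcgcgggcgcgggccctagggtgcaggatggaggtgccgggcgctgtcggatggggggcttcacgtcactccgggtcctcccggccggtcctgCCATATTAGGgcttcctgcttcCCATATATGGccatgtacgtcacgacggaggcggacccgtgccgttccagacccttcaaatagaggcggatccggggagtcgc
EGR1 held 2 CArG boxes, CCATATTAGG and CCATATATGG, in a window of which 1.16% of 35116 RefSeq windows of this length hold at least 1. PHLDA1 held 1 CCGGAA match (read as TTCCGG on the strand shown), as do 14.5% of windows, and the DUSP6 window held none of the 4 motifs. TGANTCA occurs in 6.57% and TGACGTCA in 1.65% of windows. RefSeq windows were found for 6 of the 10 genes (9 windows in all), and among SPRY2, SPRY4 and SPRED2 there was 1 further match, CCGGAA in a SPRY2 window. These are matches of letters and do not show that a factor binds.

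The dual-specificity phosphatases differed from each other in pattern. DUSP6, the cytoplasmic phosphatase that acts on ERK, read 8.56 on the LacZ array, 8.41 on the Her2-labelled array, 7.23 on the PIK3CA-H1047R-labelled array and 7.06 on the array labelled with both. It was thus lower on both arrays with the PIK3CA-H1047R label, with a difference of -1.33 against LacZ (2.52-fold) and of -1.35 (2.54-fold) for both against Her2, and it differed by -0.15 and -0.16 with the Her2 label. DUSP5, a nuclear phosphatase of ERK, read 3.07, 3.33, 4.41 and 3.59 in the same order of arrays. Its highest value was on the PIK3CA-H1047R-labelled array, 1.34 above LacZ (2.53-fold), opposite to DUSP6, and it stayed below the log2 value of 5 used as the filter for counting genes. DUSP4, a nuclear phosphatase of ERK and other MAP kinases, spanned only 0.63 log2 units: it read 6.99, 6.75, 6.97 and 6.36, lowest on the array labelled with both.

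Of the inhibitors that act upstream of ERK, SPRY2 had the widest range, 0.94 log2 units. SPRY2, a Sprouty protein that restrains receptor signalling to RAS and RAF, read 6.14 on the LacZ array, 5.33 under the Her2 label, 5.91 under the PIK3CA-H1047R label and 5.19 under both. Both arrays with the Her2 label were the low ones, with differences of -0.81 and -0.71 for that label, and both against LacZ came to -0.94 (1.92-fold), short of the 2-fold threshold as deposited and -1.02 after quantile normalization. SPRY4, of the same family, read 5.06, 4.53, 5.12 and 4.91, a span of 0.60 with the low value on the Her2-labelled array. SPRED2, which blocks activation of RAF by RAS, read 2.44, 2.08, 2.31 and 1.66. These values are the lowest of the 10 genes on each array, above array medians of 1.13 to 1.17. The SPRED2 difference of -0.78 between both and LacZ is between weak signals.

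**Figure D1:**
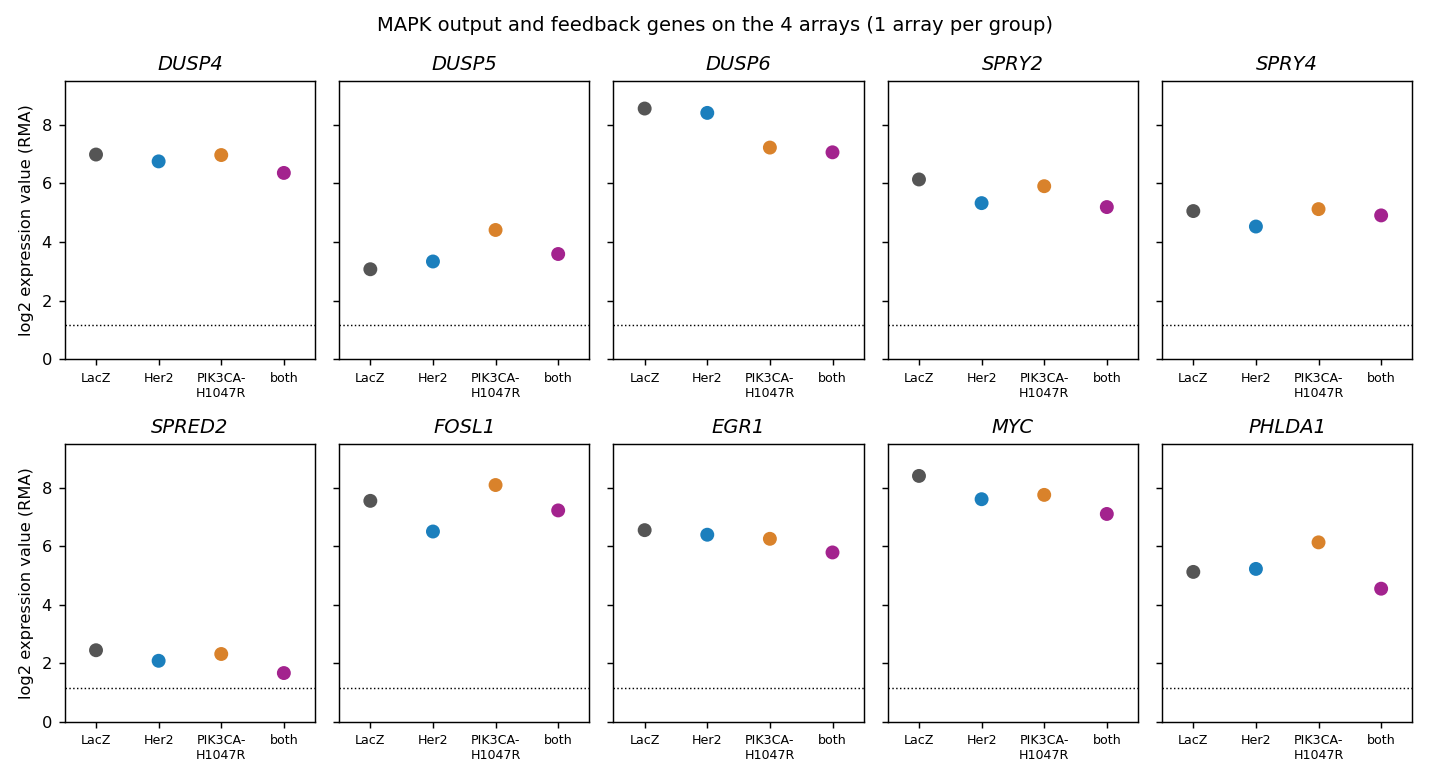
Log2 expression values of the 10 genes (vertical axis) on the 4 arrays (horizontal axis, 1 point per array, 1 array per group); the dotted line is the median of the arrays' medians over all probe sets. DUSP6 drops from 8.56 and 8.41 to 7.23 and 7.06 on the arrays with the PIK3CA-H1047R label. PHLDA1 peaks at 6.13 on the PIK3CA-H1047R-labelled array. SPRED2 lies closest to the dotted line, at 1.66 to 2.44.

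Among the transcription factors, FOSL1 (FRA1, an AP-1 subunit stabilised by ERK) had the widest range of all 10 genes, 1.59 log2 units. It read 7.55 on the LacZ array, 6.50 on the Her2-labelled array, 8.09 on the PIK3CA-H1047R-labelled array and 7.22 on the array labelled with both. The Her2 label went with lower values (differences of -1.05 and -0.87) and the PIK3CA-H1047R label with higher ones (0.54 and 0.72), each in the 2 pairs of arrays that measure it. MYC, a growth-promoting factor whose protein ERK stabilises, read 8.40, 7.60, 7.75 and 7.10. It was lower with either label, and both against LacZ differed by -1.30 (2.46-fold), close to the sum of the single differences of -0.80 and -0.65. EGR1, whose 2 CArG boxes are shown above, read 6.55, 6.39, 6.25 and 5.79, and its largest difference, both against LacZ, was -0.76 (1.70-fold). PHLDA1, a pleckstrin homology-like domain protein induced by ERK, read 5.12, 5.22, 6.13 and 4.55. It was highest under the PIK3CA-H1047R label alone, 1.01 above LacZ, and lowest with both labels, where it differed by -1.58 (3.00-fold) from the PIK3CA-H1047R-labelled array. The first of these values is at the 2-fold threshold and drops below it, to 0.96, after quantile normalization.

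Counts of the 10 genes past 2-fold were set against the share of the 4312 genes with log2 expression of 5 or more on any array (8 of the 10 have; DUSP5 and SPRED2 do not). Between Her2 and LacZ, 1 of 10 was at least 2-fold lower (FOSL1) and 0 higher, where 2.57% and 2.95% of genes were. Between PIK3CA-H1047R and LacZ, 2 were higher (DUSP5 and PHLDA1) and 1 lower (DUSP6), where 7.07% and 4.08% of genes were (5.13% and 5.15% after quantile normalization). Between both and LacZ, 2 were lower (DUSP6 and MYC) and 0 higher, against 11.1% and 13.8% of genes. Between both and PIK3CA-H1047R, 1 was lower (PHLDA1) and 0 higher, against 8.88% and 10% (432 genes). Between both and Her2, 1 was lower (DUSP6) and 0 higher, against 6.10% and 9.09%. With 10 genes, 1 call is 10% of them, so each of these shares rests on 1 or 2 genes.

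The small differences leaned one way. Between both and LacZ, 9 of 10 genes were lower by any amount (47.9% of genes past the filter were), all but DUSP5, and their median difference was -0.70, where that of all genes past the filter was 0.04 and the median size of a difference, in either direction, was 0.55. Between both and PIK3CA-H1047R, 10 of 10 were lower (50.4% of genes), with a median of -0.65 against -0.01 and a median size of 0.43. Between Her2 and LacZ, 8 of 10 were lower (48.2% of genes), with a median of -0.30 against 0.02 and a median size of 0.31. For PIK3CA-H1047R against LacZ the median was -0.07 against 0.07, with 4 genes higher and 6 lower, and for both against Her2 it was -0.41 against 0.01, with 3 higher and 7 lower. The share of all genes that were lower was not computed for these last comparisons. The comparisons in this paragraph share arrays, so their medians are not separate pieces of evidence, and the direction of such counts was known before they were made. The proliferation markers went the other way on the array labelled with both: MKI67 differed from LacZ by 3.96 and CDK1 by 4.96.

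**Figure D2:**
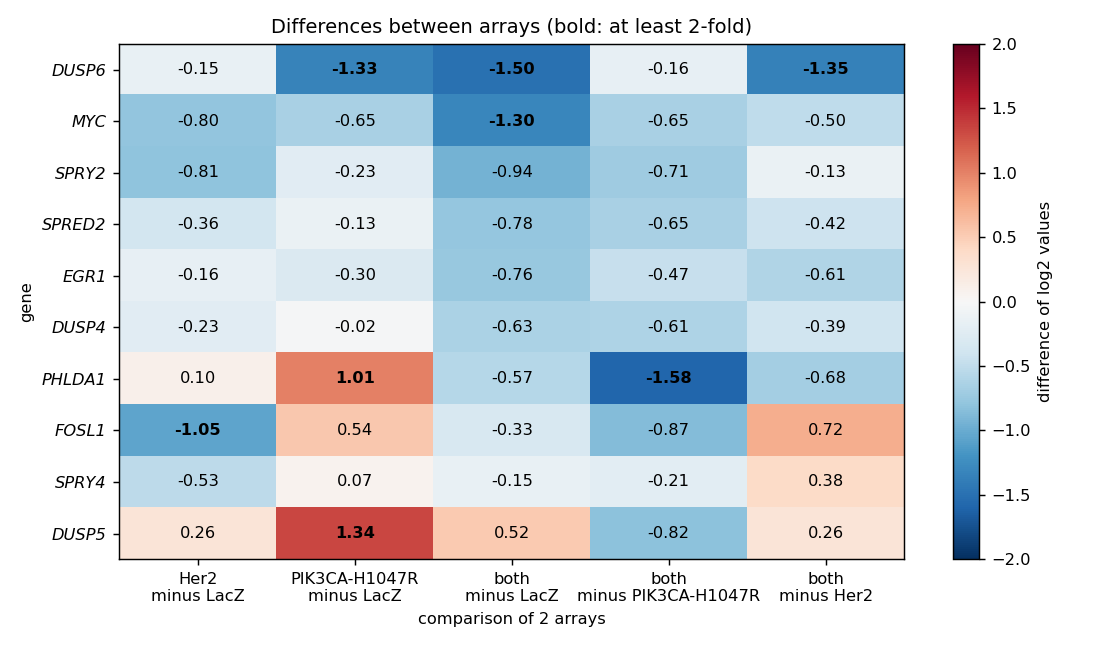
Differences of log2 values between pairs of arrays (columns) for the 10 genes (rows, ordered by both minus LacZ); colour gives the size and sign, and bold numbers are at least 2-fold. Blue cells fill the column of both minus PIK3CA-H1047R, from -0.16 for DUSP6 to -1.58 for PHLDA1.

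By order of the arrays the genes fell into few types. DUSP4, DUSP6, SPRY2, SPRED2, EGR1 and MYC, 6 of 10, were highest on the LacZ array and lowest on the array labelled with both, an order that 14.5% of genes past the filter had. The other 4, DUSP5, SPRY4, FOSL1 and PHLDA1, were highest on the PIK3CA-H1047R-labelled array. None of the 10 was highest on the Her2-labelled array or on the array labelled with both. The share of all genes highest on each single array was not computed, so these last counts have no background beside them. The description of these orders was made after the values were seen.

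Each label can be read in 2 pairs of arrays that share none, and the departure from additivity is the difference between those readings (the value with both minus each single value plus LacZ). DUSP6 departed by -0.01, and by 0.05 to 0.11 under the alternative normalizations. SPRY2 (0.10), MYC (0.14), FOSL1 (0.18), SPRED2 (-0.29), EGR1 (-0.31), SPRY4 (0.31) and DUSP4 (-0.38) departed by less than the 0.46 that was the median size over genes past the filter. PHLDA1 departed by -1.69 and DUSP5 by -1.09, so that 2 of 10 were at or below -1, where 9.04% of genes past the filter were. For both of these genes the high value on the PIK3CA-H1047R-labelled array was absent or smaller on the array labelled with both. The Her2 label went with 0.10 in PHLDA1 without the PIK3CA-H1047R label and with -1.58 beside it.

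**Figure D3:**
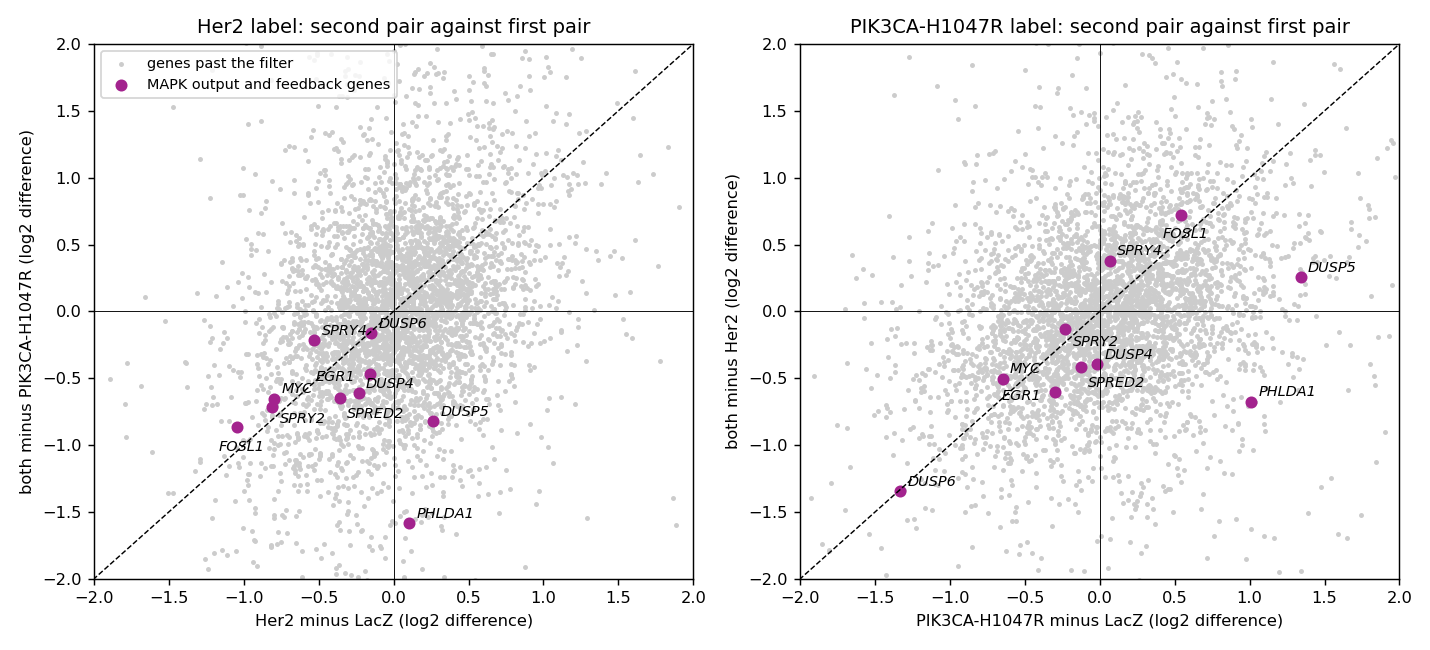
Log2 differences for the Her2 label (left) and the PIK3CA-H1047R label (right) in the pair of arrays without the other gene (horizontal axis) and with it (vertical axis), for the 10 genes (purple) and the 4312 genes past the filter (grey; 246 and 248 lie beyond the axis limits of 2); the dashed line marks equal values. DUSP6 lies on that line in both panels, and PHLDA1 and DUSP5 lie below it.

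The genes around this list were taken from 7 lists of the pathway, with 92 genes, of which 80 had a probe set of their own and 43 passed the filter. Between both and LacZ, 9 of these 43 were at least 2-fold lower and 1 higher, with a median of -0.35, and between both and PIK3CA-H1047R 8 were lower and 1 higher, with a median of -0.54. Between PIK3CA-H1047R and LacZ, 5 were higher and 2 lower (median 0.15), between Her2 and LacZ 1 was higher and 1 lower (-0.27), and between both and Her2 0 were higher and 2 lower (-0.32). The shares of all genes past the filter are those given for the 10 genes above. By list, the median between both and LacZ was below 0 in 5 of the 7, from -0.54 in the other phosphatases to -0.34 in the kinases, and above 0 for the adaptors and RAS regulators (0.06) and for SPRED1, the only gene of its list past the filter (0.40). The kinase median is the middle of 4 genes, MAP2K1 (0.33) and RPS6KA3 (0.76) higher and ARAF (-1.01) and MKNK2 (-1.29) lower. Over all measured genes, without the filter, the median was -0.02 in the kinases and -0.09 in the EGF receptor ligands. Over all genes past the filter, 35.6% differed at least 2-fold in any of the 5 comparisons.

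Of the other phosphatases, 4 of 8 passed the filter. DUSP1, an immediate early phosphatase that acts mainly on p38 and JNK, read 8.86, 8.40, 7.41 and 8.47 on the LacZ, Her2, PIK3CA-H1047R and both arrays, low under the PIK3CA-H1047R label alone. DUSP7, a cytoplasmic ERK phosphatase like DUSP6, read 5.76, 4.96, 5.91 and 4.37 and, unlike DUSP6, was low on the arrays with the Her2 label. DUSP10, a phosphatase of p38 and JNK, read 6.70, 5.93, 7.74 and 6.74, highest under the PIK3CA-H1047R label alone. Of the other Sprouty and Spred genes, SPRED1 was the only one of 4 past the filter, and its largest difference was 0.52, between Her2 and LacZ.

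Of 23 immediate early and ETS genes, 22 were measured and 11 passed the filter. JUNB and JUND, subunits of AP-1, read 8.18, 7.55, 6.87 and 6.83 and 6.71, 6.33, 6.26 and 5.40, and differed by -1.35 and -1.30 between both and LacZ. ATF3, a stress-induced factor of the ATF family, stood at 5.49 on the PIK3CA-H1047R-labelled array against 2.28, 2.44 and 1.91 on the LacZ, Her2 and both arrays. Like PHLDA1 it was highest on that array, by 3.21 log2 units over LacZ. Only that high value took ATF3 past the filter of 5, so its place in the counts above depends on the peak itself. ETS1 was also highest on the PIK3CA-H1047R-labelled array, with 6.54 against 5.49 to 5.63 elsewhere. Of 17 other output genes, 10 passed the filter. TRIB1, a pseudokinase, differed by -1.82 between both and LacZ, and PLAU (urokinase) by -1.47. MCL1, an inhibitor of apoptosis, was higher there by 1.13, and HMGA2, a chromatin protein, was 1.07 higher on the Her2-labelled array than on the LacZ array.

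Of 14 kinases of the cascade, 4 passed the filter, and all 4 differed at least 2-fold in any of the 5 comparisons, as 35.6% of genes did. MAP2K1, which encodes MEK1, read 6.64, 6.83, 8.01 and 6.96, 1.37 higher under the PIK3CA-H1047R label alone than on the LacZ array, and RPS6KA3, which encodes the ERK-activated kinase RSK2, read 5.18, 5.70, 6.76 and 5.94. ARAF and MKNK2, a kinase that ERK activates, differed by -1.01 and -1.29 between both and LacZ. Of 18 adaptors and RAS regulators, 9 passed the filter and 1 (against 35.6% of genes) was past 2-fold in any comparison, GRB2, the adaptor that links receptors to RAS activation, at -1.03 between both and LacZ. Of 8 ligands of the EGF receptor family, 4 passed the filter. HBEGF read 5.68, 4.86, 5.37 and 3.25, lowest on the array labelled with both, by -2.43 against LacZ. EREG read 4.70, 5.45, 5.80 and 4.61, highest under the PIK3CA-H1047R label alone.

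**Figure D4:**
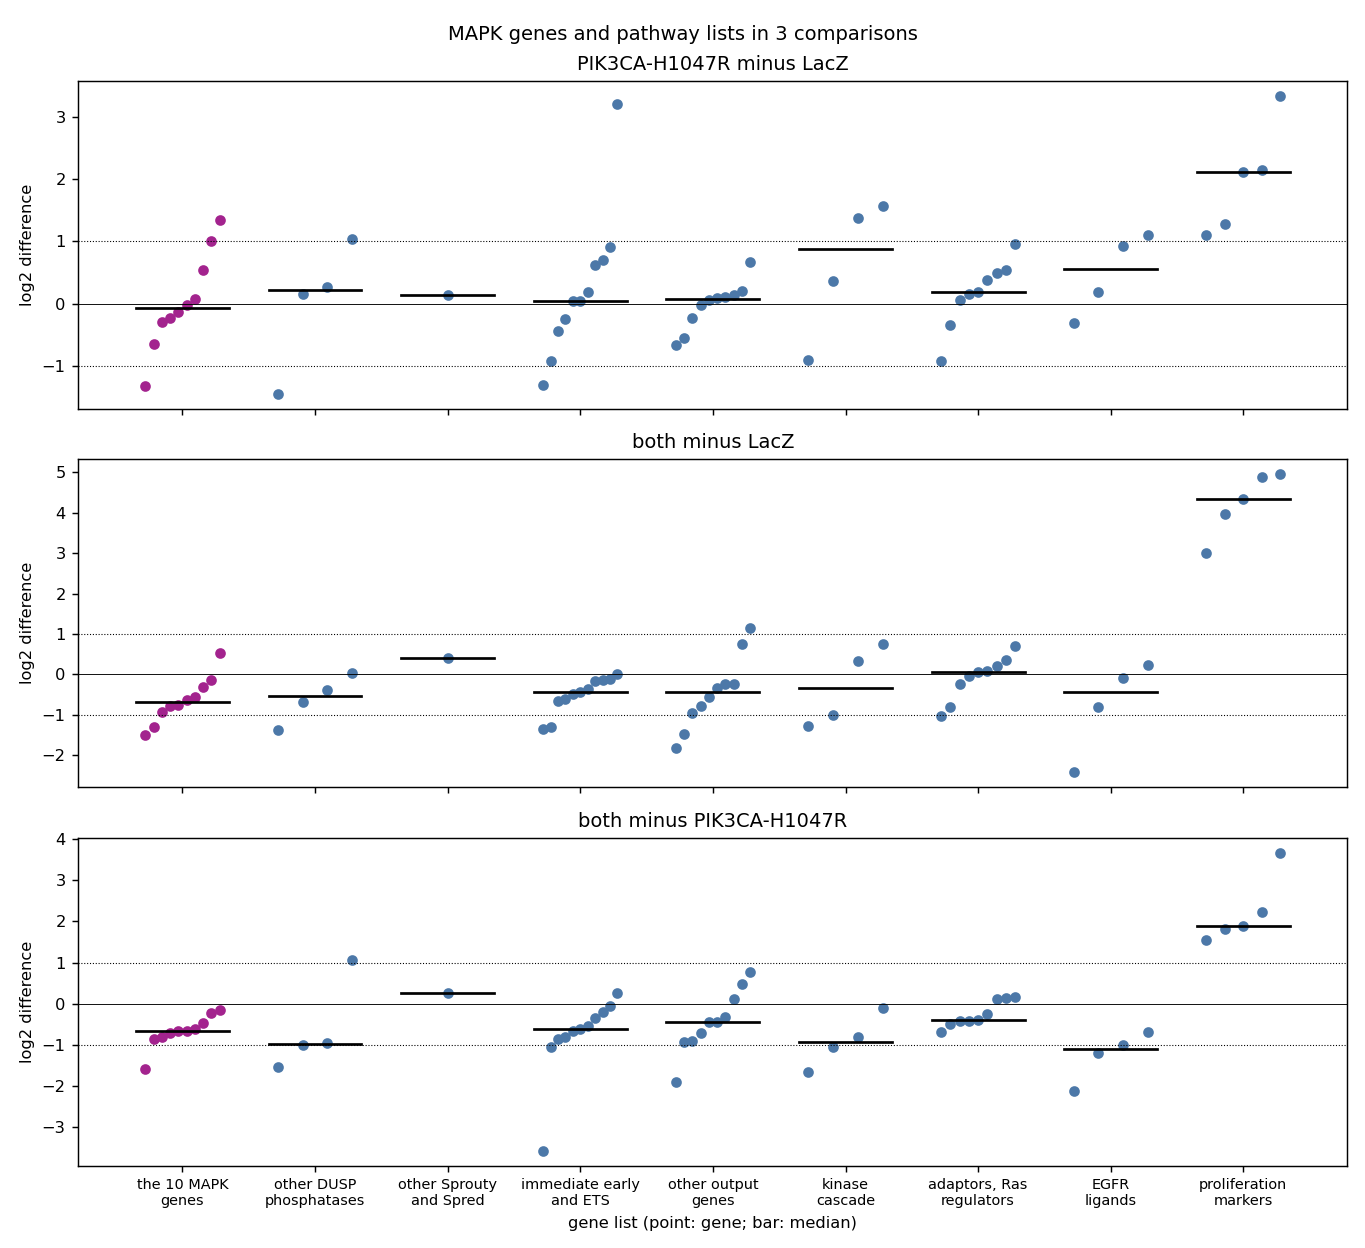
Log2 differences (vertical axis) in 3 comparisons (panels, each with its own scale) for the 10 genes (purple) and for the genes past the filter in the 7 pathway lists and the proliferation markers (blue); each point is a gene, bars are medians, and dotted lines mark 2-fold. Between both and LacZ the median of the 10 genes is -0.70, and the proliferation markers lie between 3.01 and 4.96.

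The genes whose pattern was most like that of a member were found by the Euclidean distance between log2 values centred on each gene's mean over the 4 arrays, for the 3 members with the widest range. For DUSP6 they were TANC2 (distance 0.05; 7.02, 6.93, 5.72 and 5.60 on the LacZ, Her2, PIK3CA-H1047R and both arrays), ERGIC3 (0.16) and YIPF3 (0.18). For FOSL1 they were HOMER3 (0.15; 4.86, 4.01, 5.52 and 4.63), UBQLN4 (0.18) and S100A2 (0.25). For PHLDA1 they were ALDH1L2 (0.17; 6.96, 7.30, 8.06 and 6.52), FGD6 (0.17) and HOOK1 (0.18). Among the 4312 genes past the filter, the members aside, 45 lay within a distance of 0.5 for DUSP6, 27 for FOSL1 and 70 for PHLDA1. With 4 arrays such likeness is therefore not particular to the genes named.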

How the data were processed

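Total RNA of 4 MCF10A transfectants was measured on 1 Affymetrix array each. The authors deposited a log2 value for every probe set, and the submitters' processing notes name oligo and RMA; the log base follows from RMA and the range of values. RMA corrects background, quantile-normalizes arrays and combines probes, which can compress differences of weak probe sets. No version, genome build or probe set definition is stated in the labels. Of 53617 probe sets, 23871 carry 1 symbol and 1842 several in the platform annotation; symbols were updated by gene identifier with the RefSeq table (GRCh38.p14). From these, differences between arrays were computed per gene (probe set with the highest mean; small RNAs, ERBB2 and PIK3CA left out). Background shares used the 4312 of 20914 genes with a log2 value of at least 5 on at least 1 array; the filter asks for 1 array only and so admits genes high on a single array. With 1 array per group no p-value was computed, and 4 arrays bound the precision. Alternatives were quantile and cyclic loess (3 iterations) normalization in limma 3.58.1 (R 4.3.3). Others were the mean of all probe sets, filters at 3 and 7 or none, and a 1.5-fold threshold. Both normalizations over all genes were added after seeing the data. Background shares after normalization were added then too, only for the normalizations of the genes past the filter. All 10 genes were named; from each pathway list, up to 4 genes past 2-fold in any comparison with the largest difference between both and LacZ. SPRED1 and marker genes were named in addition. Members and lists were chosen with earlier results of these data known. Python 3.11.15 with pandas 2.3.3 was used.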

Additional observations from a re-analysis of the deposited data

Results flagged for a closer look

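In 2 of the 10 genes a label went with differences of opposite sign in its 2 pairs of arrays. Each pair is 1 array against 1, so the difference between the pairs was not tested. The share of all genes with such opposite signs was not computed, so the count of 2 has no background beside it. For the Her2 label, DUSP5 differed by 0.26 without the PIK3CA-H1047R label and by -0.82 beside it, a change of -1.09. PHLDA1 differed by 0.10 and -1.58 for the Her2 label, and by 1.01 and -0.68 for the PIK3CA-H1047R label, a change of -1.69 either way, since both readings use the same 4 values. The values of 0.26 and 0.10 lie below 0.31, the median size of a difference between Her2 and LacZ over genes past the filter. The sign of these 2 readings therefore rests on small values.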

How the results depend on the processing

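Each of the 10 genes has 1 probe set, so the mean of all probe sets gave the same values by construction. After quantile or cyclic loess normalization of the genes past the filter, which leaves out DUSP5 and SPRED2, and after the same normalizations of all genes, no gene past 2-fold turned direction. Counts changed in 2 comparisons. For both against LacZ the genes at least 2-fold lower went from 2 to 3 under quantile normalization, of the genes past the filter and of all genes, with SPRY2 at -1.02. For PIK3CA-H1047R against LacZ the genes at least 2-fold higher went from 2 to 0 (DUSP5 not included) or, over all genes, to 1, because PHLDA1 dropped from 1.01 to 0.96 under quantile and to 0.99 under cyclic loess normalization; the cause was not tested. At a 1.5-fold threshold, which by construction can only add genes, 3 were lower between Her2 and LacZ, 2 were lower between PIK3CA-H1047R and LacZ, 6 were lower between both and LacZ, 7 were lower between both and PIK3CA-H1047R, and 3 were lower and 1 higher between both and Her2. Background shares were computed at 2-fold only, so the counts at 1.5-fold have no share of all genes beside them. The 2-fold shares ran from 2.57% to 13.8%, from 1.67% to 6.49% without the filter, and from 2.17% to 12.7% with the filter at 7. Quantile normalization moved the shares for PIK3CA-H1047R against LacZ from 7.07% higher and 4.08% lower to 5.13% and 5.15%, and those for both against LacZ from 13.8% and 11.1% to 12.4% and 13.3%. For the pathway lists, the genes lower between both and LacZ went from 9 to 3 with the filter at 7 and to 13 with the filter at 3 or none, those lower between both and PIK3CA-H1047R from 8 to 3 and to 13, and those higher between PIK3CA-H1047R and LacZ from 5 to 2 and to 9; more or fewer genes are counted by construction. No paired analysis by replicate number was possible because each group is 1 array, which gives only 1 pair per comparison. The 2 pairs of arrays that read each label were given as values and not tested. SPRED2, the lowest of the 10 genes on each array, is limited by signal over background.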
